A study of Pleurodeles waltl with 10 samples.

Results

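Neurexins and neuroligins are the proteins by which the sending and the receiving side of a synapse hold each other. Neurexins sit in the membrane of the axon terminal, and neuroligins sit opposite them in the membrane of the receiving neuron, where each neuroligin pairs with a neurexin across the cleft. The genes described here were a pair of neurexins, NRXN2 and NRXN3, and the neuroligins NLGN1, NLGN2 and NLGN3. They were found in the catalogue that pairs transcript names with gene names for the series, by taking every row whose gene name, in capitals, was one of these 5 symbols. All 5 were present, out of 16771 gene names in capitals, and together they held 179 of the 194333 distinct transcript names (0.0921%). The genes were chosen with results of these data known, so their presence is no finding in itself.

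The catalogue belongs to a single-cell RNA sequencing study of a salamander, the Iberian ribbed newt Pleurodeles waltl, whose larval forebrain was taken at stage 55. Its 10 libraries were 5 gene expression libraries and the 5 matching libraries of multiplexing oligos, which are short barcodes that tag pools of cells. All animals had received the PHP-GFP virus, at stage 37 (2 libraries of each kind), stage 41 (1 of each kind) or stage 51 (2 of each kind), and the labels used here name no uninjected group and do not give the promoter that drives GFP. Expression was not analysed here for any library, so nothing below is a level of RNA, no group was compared with another, and the tissue could not be checked against markers. What was counted is the number of distinct transcripts listed under each gene name, which sets the targets that counting software can assign reads to. These numbers have no replicates, and the sequencing depth behind them is unknown. How they depend on that depth, or on the amount and length of each RNA, was not tested.

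Vertebrate neurexin genes make long and short protein forms from separate promoters, and the long form is spliced at several sites in the stretch outside the cell. The splice choices decide which partner on the other side of the synapse is bound. Neuroligins have an outer part related to acetylcholinesterase, without its enzyme activity, and are spliced at fewer sites. In the mouse, neuroligin-1 is found mainly at excitatory synapses, neuroligin-2 mainly at inhibitory synapses and neuroligin-3 at both. Apart from 3 rows for constructs, the transcripts of the catalogue came from a pair of sources with different names. Those starting with pt_ also carry the words HQ_transcript, as names from long-read pipelines do, and are called HQ transcripts. Those starting with TRINITY_ carry the prefix of a short-read assembler and are called TRINITY transcripts. A transcript in this sense is an assembled or read sequence, so the number under a gene name is not a number of spliced forms.

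On the presynaptic side, NRXN3 had the most transcripts of the 5 genes and NRXN2 the second fewest. NRXN3 was listed with 76 transcripts, of which 69 were HQ and 7 were TRINITY. NRXN2 was listed with 24 transcripts, of which 20 were HQ and 4 were TRINITY. The number for NRXN3 was 3.17 times that for NRXN2. HQ transcripts made up 90.8% of those of NRXN3 (95% exact binomial interval 81.9% to 96.2%) and 83.3% of those of NRXN2 (62.6% to 95.3%), and these intervals overlap. The intervals cover counting error only and treat transcripts as independent draws, which they are not, so they serve as a scale.

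On the postsynaptic side, the neuroligins fell in the order NLGN1, NLGN2, NLGN3. NLGN1 was listed with 50 transcripts, 49 of them HQ and 1 TRINITY. NLGN2 was listed with 25 transcripts, 24 of them HQ and 1 TRINITY. NLGN3 was listed with 4 transcripts, 1 of them HQ and 3 TRINITY. NLGN1 thus had 2 times as many as NLGN2 and 12.5 times as many as NLGN3. NLGN3 was the only one of the 5 genes with more TRINITY than HQ transcripts, a state found in 34.8% of all gene names, and its HQ share of 25% has an exact interval of 0.631% to 80.6%.

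**Figure D1:**
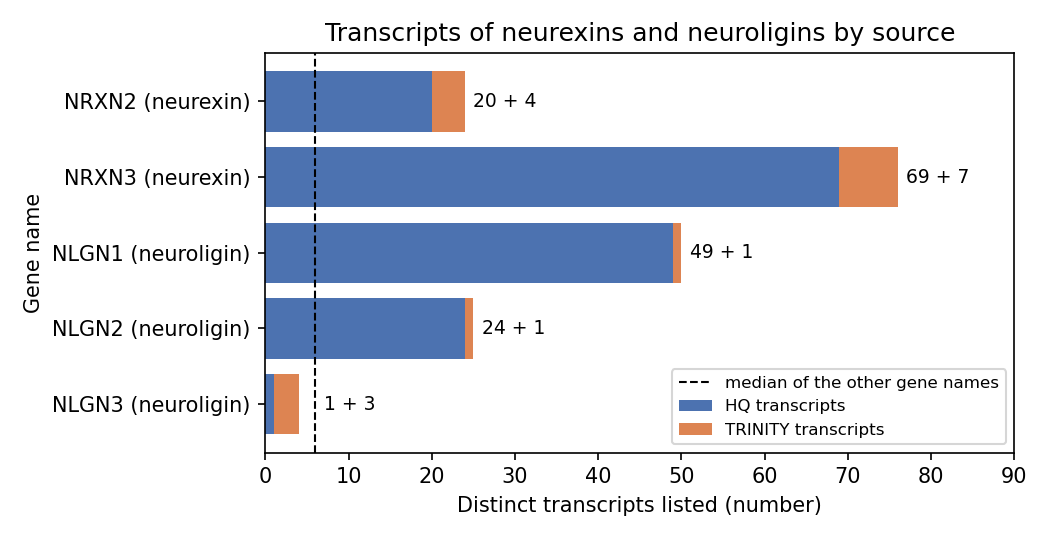
Horizontal bars give the number of distinct transcripts listed for each gene, divided into HQ (blue) and TRINITY (orange) transcripts, with both numbers printed at the end of the bar and the median of the other gene names, 6, as a dashed line. NRXN3 has the longest bar (69 HQ and 7 TRINITY) and NLGN3, with 1 HQ and 3 TRINITY, is the only bar that ends below the dashed line.

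Taken as families, the neurexins had a median of 50 transcripts per gene and the neuroligins a median of 25, but the values overlapped. NRXN2 (24 transcripts) lay below NLGN2 (25) and NLGN1 (50). The neuroligin median rose to 37.5 when NLGN4X, a neuroligin outside the 5 with 64 transcripts, was added. No test between the families was made, since the genes were chosen with results of these data known and the families hold 2 and 3 genes. The families did not overlap in TRINITY transcripts, with 4 and 7 for the neurexins and between 1 and 3 for the neuroligins. In the first and largest of the 3 runs of TRINITY rows described below, they met, as NRXN2 and each neuroligin had 1 there. At least 4 TRINITY transcripts were listed for 10.6% of all gene names, and at least 2 for 47.9%. The limits of 4 and 2 were chosen after the values were seen. HQ transcripts summed to 89 for the neurexins and 74 for the neuroligins, which is 89.0% and 93.7% of their transcripts. The share was 82.7% over all other names and 86.4% over other names with both sources. These other names were not matched for number of transcripts, and names of equal number are given below. The exact interval was 81.2% to 94.4% for the neurexins and 85.8% to 97.9% for the neuroligins. With NLGN4X added, a step that was not planned, the neuroligin share was 95.8%, with an interval of 91.1% to 98.4%. These intervals pool the transcripts of 2 to 4 genes and do not measure the spread between genes, so they are no test against the other names. The share was 98% for NLGN1, 96% for NLGN2 and 25% for NLGN3. Taken per name, the median share was 87.1% for the neurexins and 96% for the neuroligins. It was 66.7% over all other names and 80% over those with both sources.

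Set against the 16766 other gene names, 4 of the 5 genes stood above the median and NLGN3 below it. The other names had a median of 6 transcripts, an upper quartile of 14 and a 95th percentile of 41. NRXN3 and NLGN1 lay above that percentile, and 183 other names had more transcripts than NRXN3 and 535 more than NLGN1. NLGN2 and NRXN2 lay between the upper quartile and the 90th percentile of 29, at 4.17 and 4 times the median of the other names. NLGN3 was at 0.667 times the median, with 9348 other names above it. Counted at a threshold, 4 of the 5 genes had at least 10 transcripts, against 35.1% of all names. Both sources contributed to all 5 genes and to 70.7% of all names.

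**Figure D2:**
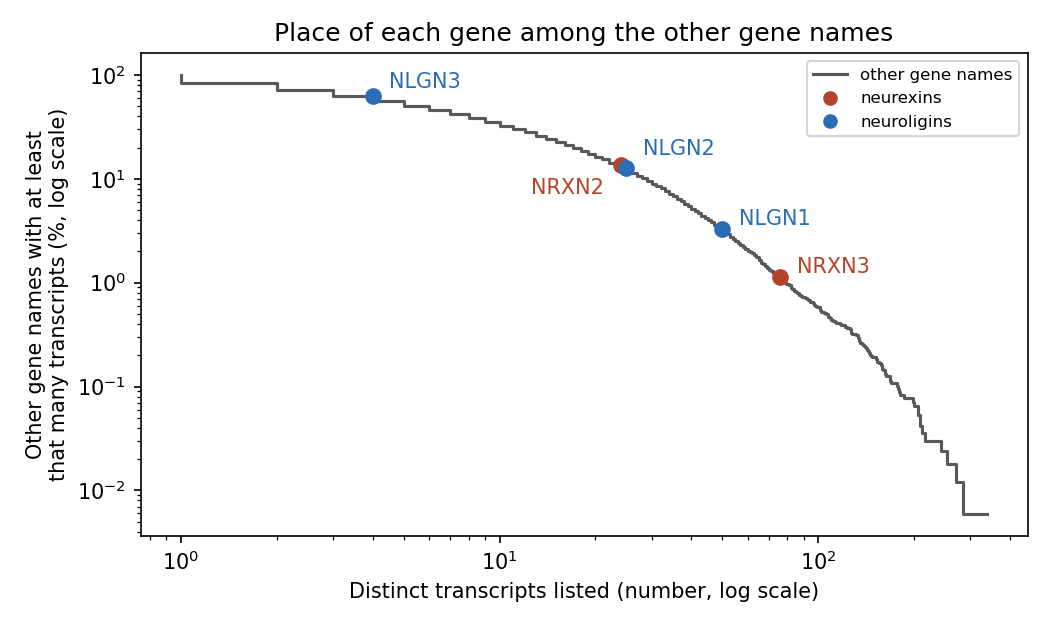
The grey line gives, for each number of distinct transcripts (horizontal, log scale), the percentage of other gene names with at least that many (vertical, log scale), and points mark the neurexins (red) and neuroligins (blue). NRXN3 sits where 1.13% of the other names reach its number, NLGN1 at 3.29%, NLGN2 at 12.8%, NRXN2 at 13.6% and NLGN3 at 62.8%.

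The mix of sources was also set beside other gene names with exactly the same number of transcripts. The 128 other names with 24 transcripts had a median of 22 HQ and 2 TRINITY transcripts, and 25 of them (19.5%) had at least the 4 TRINITY transcripts of NRXN2. The 16 other names with 50 transcripts had a median of 3 TRINITY transcripts, against 1 for NLGN1. All 16 had at least 1, but so did 16557 of all 16766 other names. The 129 other names with 25 transcripts had a median of 2 TRINITY transcripts, against 1 for NLGN2. For NLGN3, 338 of the 1175 other names with 4 transcripts (28.8%) also had 3 or more TRINITY transcripts. Only 6 other names had 76 transcripts, and 1 of them had at least the 7 TRINITY transcripts of NRXN3. Their median was 72.5 HQ and 3.5 TRINITY transcripts, against 69 and 7 for NRXN3. Beside names of equal number, NRXN2, NRXN3 and NLGN3 thus had fewer HQ transcripts than the median, and NLGN1 and NLGN2 had more.

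The names of TRINITY transcripts carry more detail. They give a component, which is a set of reads the assembler joined, then a cluster within it, which stands for a gene, and an isoform within the cluster. The 16 TRINITY transcripts of the 5 genes lay in 10 clusters and 7 components. NRXN3 had 4 clusters, NRXN2 and NLGN3 had 2 each, and NLGN1 and NLGN2 had 1 each, against a median of 1 cluster for the other names. Counted by cluster, the families met at 2.

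A component was shared between the neurexins. Component DN306366_c0 held 4 clusters, of which clusters 1, 2 and 7 were named NRXN3 and cluster 3 was named NRXN2. It was the only one of the 7 components that also carried another gene name, and that name was the other neurexin. No neuroligin shared a component with any other name. More than 1 gene name was found in 1770 of 25131 components (7.04%), and in 55.1% of the 2452 components with more than 1 cluster. A pair of names that differ only in a final number and letter, as the names of a numbered family do, was found in 13.1% of the components with more than 1 cluster. Of the 84 partner genes listed below that had TRINITY transcripts, 18 (21.4%) shared a component with another name, against 19.96% of the other names. For 7 of these 18 another name there was of the same numbered family, in the pairs C1QL1 with C1QL2, C1QL2 with C1QL3, TENM3 with TENM4, and SLITRK2 with SLITRK4. Among the rest, PTPRF shared a component with PTPRS. Both are receptor phosphatases whose names differ in a final letter without a number, so the rule for numbered families did not count them. Others shared with unlike names, such as SHANK1 with ZNF609 and MAGI2 with GTPBP4. Reads of such genes could be divided between names, and this was not tested for NRXN2 and NRXN3. None of the transcripts of the 5 genes was itself listed under more than 1 gene name or in more than 1 row.

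In some clusters of the 5 genes, as in many other clusters, isoform numbers in the names ran higher than the number of isoforms listed. The NRXN2 cluster of component DN160072_c0 listed 3 isoforms, numbered 3, 11 and 18. The NRXN2 cluster in the shared component listed a single isoform, numbered 15. The first NRXN3 cluster there listed 2 isoforms, numbered 10 and 13, while another NRXN3 cluster listed isoforms 2, 4 and 5. The single TRINITY transcript of NLGN1 was isoform 4, and that of NLGN2 was isoform 1. Of the 10 clusters of the 5 genes, 6 had a highest isoform number above the number listed, against 46.2% of the 28048 other clusters. Per cluster, the highest isoform number had a median of 4.5 for the 5 genes and 1 for the other clusters. Its maximum was 18 over the 6 neurexin clusters and 5 over the 4 neuroligin clusters, so these maxima rest on unequal numbers of clusters. What became of isoform numbers that are not listed is not stated in the labels or headers.

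The TRINITY rows were not in a single order. They formed 3 runs, each sorted by name as text, of 22685, 5687 and 5344 rows. Components in both the first and the middle run numbered 1274, and in 80.0% of them the runs had a gene name in common. The first and last runs had 5 components in common, with a shared gene name in 0 of them. NLGN1 and NLGN2 had their TRINITY transcript in the first run. NRXN2 had 1 in the first and 3 in the last, and NLGN3 had 1 in the first and 2 in the last. NRXN3 had 3 in the first, 1 in the middle run and 3 in the last. Whether clusters of a gene in different runs are the same stretch of RNA assembled more than once cannot be told apart from separate stretches by their names.

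**Figure D3:**
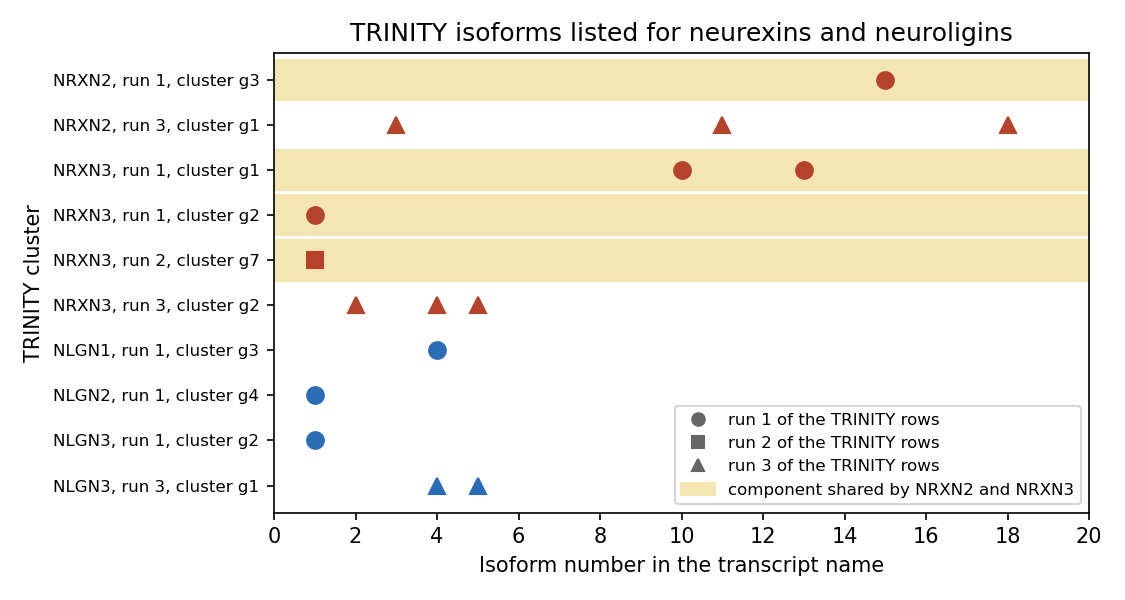
Each line is a TRINITY cluster of a neurexin (red) or neuroligin (blue), each symbol an isoform placed by the number in its name, and the symbol shape gives the run of rows in which it stands. Shading marks the component DN306366_c0, which holds 1 cluster of NRXN2 and 3 clusters of NRXN3, and the highest isoform number, 18, belongs to NRXN2.

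Partner genes were taken from 8 lists of 94 symbols, of which 86 had rows. NLGN4X, a neuroligin outside the 5, had 64 transcripts (63 HQ and 1 TRINITY). With it, the neuroligins ran from 4 to 64 transcripts and still had at most 3 TRINITY transcripts each. NRXN2, NRXN3, NLGN1, NLGN2 and NLGN3 had a single spelling each, whereas 339 of the 16771 names (2.02%) were written in more than 1 way.

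Among genes listed as direct, bridged or proposed ligands of neurexins on the receiving side, CLSTN1, a calsyntenin, had the most transcripts (90) and CLSTN2 the fewest (2). In between, GRID1, a delta-type glutamate receptor, had 42, the leucine-rich repeat protein LRRTM4 had 41 and DAG1, dystroglycan, had 22. Rows were found for 9 of the 13 genes of this list, with a median of 19 transcripts, and 7 had at least 10. That threshold was reached by 35.1% of all gene names. The latrophilins, listed by their current symbols ADGRL1 to ADGRL3, were found under the older symbols LPHN1 (26 transcripts), LPHN2 (59) and LPHN3 (60), a search made after seeing the data. Secreted ligands had the lowest median of the lists, 7 transcripts over 11 genes, and 4 of them had at least 10. CBLN4, a cerebellin, had 36 and CBLN1, which bridges neurexins to delta receptors in the mouse cerebellum, had 21. C1QL3 and C1QL4 had 1 each, and C1QL2 had 3, all TRINITY.

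Inside the axon terminal, the adaptor APBA2 had 75 transcripts and APBA1 had 56, whereas CASK, which binds the neurexin tail, had 13 and LIN7A had 3. The list had a median of 13.5 over 8 genes, and 5 of them had at least 10. Inside the receiving cell, the scaffolds and partners of neuroligins had a median of 23 over 19 genes, and 16 of them had at least 10. MAGI1 had 135 transcripts, DLG4, the scaffold PSD-95 of excitatory synapses, had 102, and GPHN, the scaffold gephyrin of inhibitory synapses, had 72. MDGA2, which blocks neuroligins from binding neurexins, had 78. LHFPL4, which links neuroligin-2 to GABA receptors in the mouse, had 2 transcripts, both TRINITY.

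The contactin-associated proteins, which share part of the domain layout of neurexins, had a median of 50 over 4 genes, from 7 for CNTNAP1 to 72 for CNTNAP2. The splicing regulators of neurexins KHDRBS1, KHDRBS2 and KHDRBS3 had 40, 18 and 15. Other synaptic adhesion families had a median of 40 over 31 genes, the highest being the receptor phosphatase PTPRS with 147 and the lowest SLITRK3 with 2. Over all lists, 68 of the 86 genes (79.1%) had at least 10 transcripts, against 35.1% of all gene names. The median over these 86 genes was 24.5, against 25 for the 5 neurexin and neuroligin genes and 6 for the names other than these 5. NRXN3 was exceeded by 9 of these 86 genes, NLGN1 by 22, NLGN2 by 42, NRXN2 by 43 and NLGN3 by 77.

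**Figure D4:**
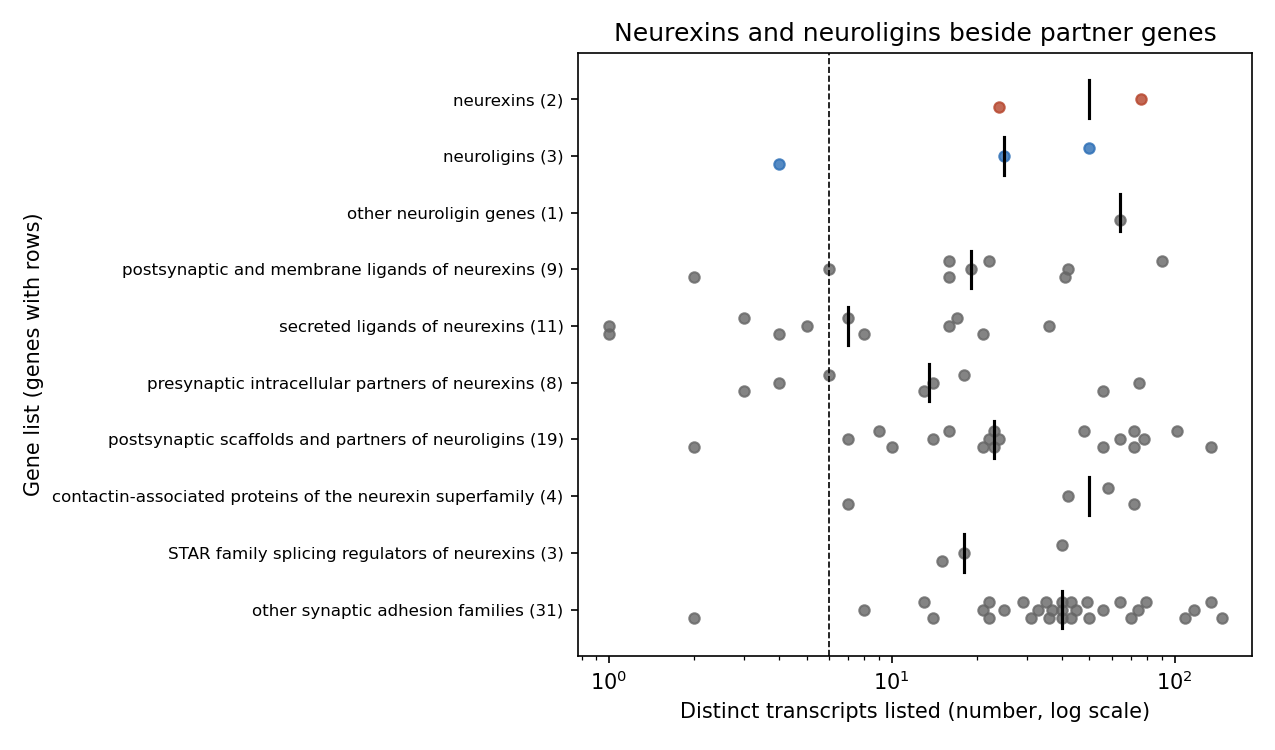
Each point is a gene placed by its number of distinct transcripts (log scale), in rows for the neurexins (red), the neuroligins (blue) and each list of partner genes (grey), with the median of each row as a black bar and the median of the other gene names, 6, as a dashed line. NLGN3, at 4, is left of the dashed line, while NRXN2 and NLGN2, at 24 and 25, are near the median of the scaffold list, 23.

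The gene most like each of the 5 was sought among the other 90 genes, by the distance between log2(transcripts + 1) over the 2 sources. NLGN2 and CADM4, another synaptic adhesion gene, had equal numbers in both sources (24 HQ and 1 TRINITY). NLGN1 was nearest to LRFN1 (48 HQ and 1 TRINITY, distance 0.029), and NRXN2 to DLGAP3 (18 HQ and 4 TRINITY, distance 0.144). NRXN3 was nearest to GPHN and SHANK2, which had equal numbers (65 HQ and 7 TRINITY each, distance 0.085). NLGN3 had the farthest nearest gene, LIN7A (1 HQ and 2 TRINITY, distance 0.415). NLGN3 itself had 1 HQ and 3 TRINITY, and on a log scale a single transcript counts for more at such low numbers. With only 2 sources, likeness here says nothing about how the genes are used.

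All 5 symbols matched a gene of the RefSeq table for this species (assembly aPleWal1.hap1), which was used for names and neighbours only. Next to NLGN1 stood SPATA16 (2 transcripts, both TRINITY) and TBL1XR1 (47 transcripts, 44 of them HQ). NLGN2 stood between CD68 (5 transcripts) and TMEM256 (1 transcript). On the side with a named gene, NRXN3 was next to ADCK1 (12 transcripts) and NRXN2 next to RASGRP2 (1 transcript). Of these 6 named neighbours, 4 had fewer transcripts than the median of 6, as did 49.7% of all names. None shared a transcript or a TRINITY component with the gene it stands beside. The neighbours of NLGN3 had symbols of LOC and a number and held no transcripts, so they are not among the 6.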

How the data were processed

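The deposited table pairs transcript names with gene names, per the file headers, and holds no measured value. Fields were split on white space. The assembly, filtering and naming of the transcripts is not given in the sources used here. Per the submitters' processing notes, Salmon 1.6.0 and alevin were used in the study. Of its columns, 0 belong to other samples. Depth per library is unknown.

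Gene names were put in capitals, and distinct transcript names were counted per name and source. Intervals are 95% exact (Clopper-Pearson). The genes, the 8 lists of partners and the threshold of 10 transcripts were chosen with earlier results of these data known, so no test was made and no p-value is given. Genes named were all 5, those with the most and fewest transcripts of each list, some chosen for their known role, and nearest genes by the stated distance. Names in the RefSeq comparison exclude symbols of LOC and a number; 81 of the 86 partner genes with rows matched. Counting was tested on simulated data. Counts and intervals were computed in Python 3.11.15 with scipy 1.17.1 and numpy 2.4.6, and plots were drawn with matplotlib 3.10.9. The barcode table of the multiplexing oligos was not used here. Results for 1 further gene are not reported here.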

Additional observations from a re-analysis of the deposited data

How the results depend on the processing

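The 11 results were recomputed under 13 settings, giving 81 values, of which 71 stayed within 1.5 times the reported value. The neuroligin median with NLGN4X added, 37.5 against 25, was at that limit and is counted among the 71. So was the median of the other names limited to those with both sources, 9 against 6. With HQ transcripts only, the median of the other names was 7, also counted among the 71, but names without HQ transcripts were left out. With these names kept it was 3, beyond that limit. Settings for spelling, repeated rows and shared transcript names could not change the numbers of the 5 genes, so their values there show no stability. With TRINITY transcripts only, 0 of the 5 genes and 0 partner genes had at least 10 transcripts, and medians were 5.5 for the neurexins, 1 for the neuroligins and 1 for the other names, which follows from the smaller number of TRINITY transcripts. There NRXN2, NRXN3, NLGN1 and NLGN2 had 4, 7, 1 and 1 transcripts, and with HQ transcripts only NLGN3 had 1. The number of genes with at least 10 transcripts was 4 of 5 in the other settings in which it was recomputed, including thresholds of 20 and 5. Protein identity and transcripts per protein length were not run, as no protein sequences were used here. No paired analysis was possible because the table holds no values per library, and for the same reason no library could be left out.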
